A study of Mus musculus with 4 samples.

Results

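The NF-κB transcription factor genes and the genes of their inhibitors were examined for RIF1 occupancy in activated primary mouse B cells. They are the 5 subunit genes Nfkb1, Nfkb2, Rel, Rela and Relb, the 3 classical inhibitor genes Nfkbia, Nfkbib and Nfkbie, and the 2 atypical inhibitor genes Nfkbiz and Bcl3. These 10 genes were chosen by name from the 22380 protein-coding genes of GENCODE M1 on mouse build mm9 (NCBIM37), and all 10 were found in the annotation, on 7 chromosomes.

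RIF1 is a chromatin-bound protein known for its roles in replication timing and in DNA repair by end joining. Its occupancy was measured by chromatin immunoprecipitation and sequencing (ChIP-seq) against the HA epitope in splenic B cells depleted of CD43-positive cells. The Rif1FH group (2 samples, genotype Rif1FH/FH) carried FLAG and HA epitopes on the endogenous RIF1 protein. The authors state that these mice, too, had a C57BL/6 background. The Rif1WT group (2 samples, C57BL/6, genotype Rif1WT/WT) carried untagged RIF1 as negative control. Both groups were kept for 72 h in culture with 5 µg/ml of bacterial lipopolysaccharide (LPS) and 5 ng/ml of the cytokine IL-4, and the labels do not say which animals stand behind each sample or how old they were.

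The analysed list gives the positions of intervals found in both Rif1FH samples, with no height, score or value per sample. No spread between replicates and no comparison with Rif1WT could therefore be given, read depth is unknown, and every count below is a description without a test. Of the 16332 intervals, 16043 were under 50 kb and are called peaks here, and 289 were of 50 kb or more and are taken to be RIF1-associated domains (RADs). No peak overlapped a wide interval, since the authors did not define a peak where it met a RAD. A gene inside a wide interval thus cannot hold a peak except beyond that interval's edge.

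NF-κB proteins are dimers of subunits that share a DNA-binding region. Rela, Rel and Relb are made as active subunits, while the Nfkb1 and Nfkb2 products are made as long precursors (p105 and p100 in the usual naming) that are processed to the DNA-binding forms. Classical inhibitors hold the dimers in the cytoplasm until IκB kinase marks them for destruction, as happens after LPS binds its receptor on B cells, and the atypical inhibitors act in the nucleus as cofactors. Several of these genes are themselves targets of NF-κB, which binds a short G- and C-bordered sequence called the κB site.

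The 10 genes divided into 4 with a peak at a 5′ end, 4 inside a wide interval and 2 with neither. A peak at a 5′ end, defined as overlap of at least 1 bp with the 1 kb on each side of any annotated transcript start, was found at Nfkb2, Rel, Nfkbie and Nfkbiz. These 4 of 10 stood beside 33.9% of all coding genes, so the share of the family was close to the background. Wide intervals covered Rela, Relb, Nfkbib and Bcl3, or 4 of 10 against 22.6% of coding genes. Because Relb and Bcl3 shared 1 wide interval, these 4 genes lay in 3 distinct intervals. Nfkb1 and Nfkbia had neither a peak at a 5′ end nor a wide interval, and Nfkb1 had a peak deep within the gene. Each role was divided in the same way. Of the 5 subunit genes 2 had a peak at a 5′ end and 2 were in a wide interval, of the 3 classical inhibitor genes 1 and 1, and of the 2 atypical ones 1 and 1.

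**Figure D1:**
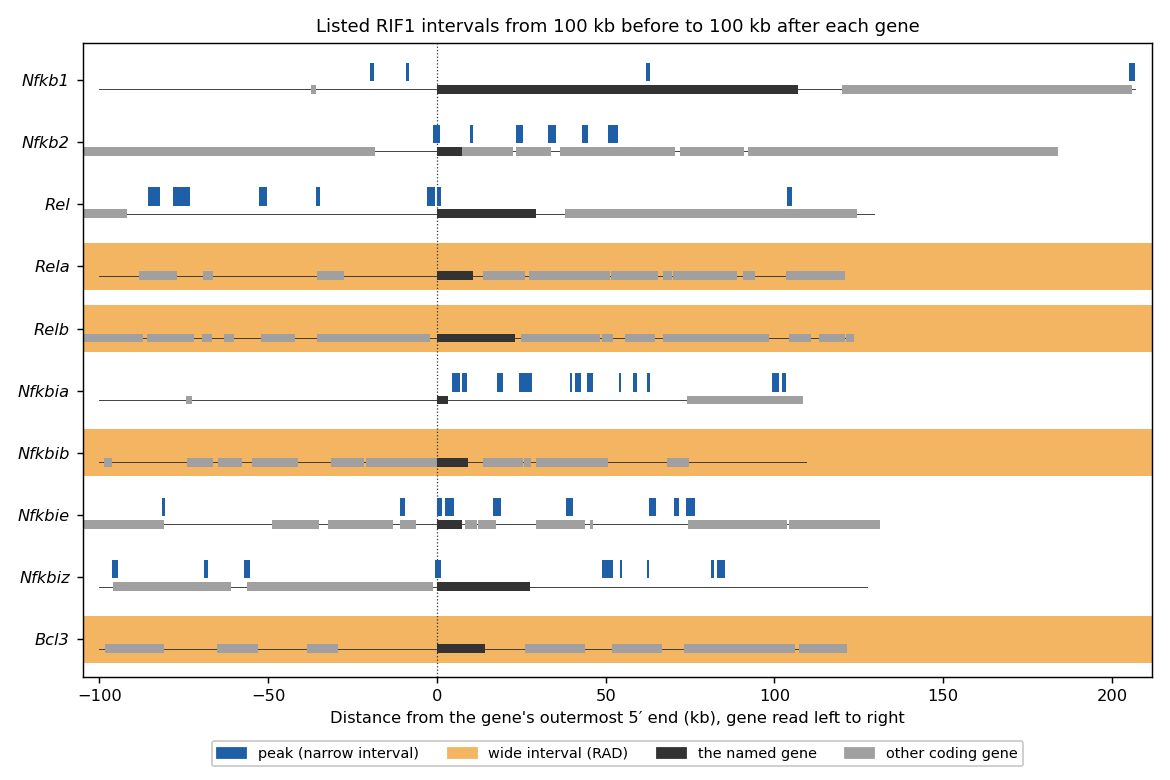
Positions of listed RIF1 intervals around the 10 genes, with distance from each gene's outermost 5′ end in kb on the horizontal axis and 1 gene per line, each read in the direction of transcription. Blue marks are peaks, orange bands are wide intervals, dark bars are the named genes and grey bars other coding genes. Rela, Relb, Nfkbib and Bcl3 lie wholly within orange bands, and the 12 peaks around Nfkbia all lie downstream of it.

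Over the gene itself, a peak was found at 5 of 10 genes (Nfkb1, Nfkb2, Rel, Nfkbie and Nfkbiz), against 35.8% of coding genes, and 9 of 10 had a peak or a wide interval there, against 58.0%. In the window from 100 kb before to 100 kb after the gene, at least 1 peak was found at 6 of 10, against 61.7%. These were the 6 genes outside wide intervals, and of all coding genes outside wide intervals 77.3% had such a peak. Among these 6, a peak was at a 5′ end of 4, against 43.4% of coding genes outside wide intervals, over the gene of 5, against 45.8%, and at neither in 1 (Nfkbia), against 52.3%. The number of peaks in that window was 4 for Nfkb1, 6 for Nfkb2, 7 for Rel, 9 for Nfkbie, 9 for Nfkbiz and 12 for Nfkbia. Their median was 8, and the median over the 17329 coding genes that no wide interval overlaps was 3 (quartiles 1 and 5). The 6 windows held 47 distinct peaks, from 520 to 5039 bp wide with a median of 1736 bp, where the median of all peaks was 1365 bp. Of these 47 peaks, 5 lay at the 5′ end of the NF-κB gene, 11 at the 5′ end of another gene and 31 at no annotated 5′ end. The same split over all peaks is not given here, so these counts describe the 6 windows alone.

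The sequences before the transcription starts are shown for 5 of the genes, because they cover the ways in which peaks, wide intervals and κB letters were placed. Each is the 250 bases before the outermost 5′ end, read from the NCBIM37 reference on the strand of the gene, 5′ to 3′. Capitals mark matches to the κB consensus, which is GGG, a purine, any base, 3 pyrimidines and CC on either strand (10 letters, with overlapping matches joined). Nfkb2 (chr19:46378977-46379226, plus strand) was wholly inside a peak, Rel (chr11:23670971-23671220, minus strand) had 26 bases and Nfkbie (chr17:45692415-45692664, plus strand) 49 bases inside one, Nfkbia (chr12:56593635-56593884, minus strand) was outside all intervals and Relb (chr7:20214788-20215037, minus strand) was inside a wide interval.
Nfkb2: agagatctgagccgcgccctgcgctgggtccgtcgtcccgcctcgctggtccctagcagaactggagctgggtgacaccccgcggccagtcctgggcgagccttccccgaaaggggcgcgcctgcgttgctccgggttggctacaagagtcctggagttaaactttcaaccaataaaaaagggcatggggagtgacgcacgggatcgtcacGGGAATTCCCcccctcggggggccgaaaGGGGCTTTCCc
Rel: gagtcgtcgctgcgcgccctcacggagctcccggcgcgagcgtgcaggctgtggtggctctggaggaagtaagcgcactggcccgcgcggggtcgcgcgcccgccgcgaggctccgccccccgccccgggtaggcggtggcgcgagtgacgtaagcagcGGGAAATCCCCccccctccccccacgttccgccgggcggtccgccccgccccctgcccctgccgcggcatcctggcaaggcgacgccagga
Nfkbie: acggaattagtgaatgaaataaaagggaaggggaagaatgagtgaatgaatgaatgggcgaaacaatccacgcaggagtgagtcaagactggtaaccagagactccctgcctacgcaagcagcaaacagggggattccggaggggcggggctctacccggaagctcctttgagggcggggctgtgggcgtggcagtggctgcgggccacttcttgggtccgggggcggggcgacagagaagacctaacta
Nfkbia: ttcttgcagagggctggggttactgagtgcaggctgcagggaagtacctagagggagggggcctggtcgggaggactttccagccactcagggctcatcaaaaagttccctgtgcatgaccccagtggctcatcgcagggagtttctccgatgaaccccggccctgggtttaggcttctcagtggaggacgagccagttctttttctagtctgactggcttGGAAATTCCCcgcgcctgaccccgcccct
Relb: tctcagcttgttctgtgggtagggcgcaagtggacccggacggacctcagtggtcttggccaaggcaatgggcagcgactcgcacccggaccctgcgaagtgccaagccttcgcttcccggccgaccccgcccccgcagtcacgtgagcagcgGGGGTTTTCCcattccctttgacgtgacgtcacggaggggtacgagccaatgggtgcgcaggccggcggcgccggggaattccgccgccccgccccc

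Among the subunits, Nfkb2 (ENSMUSG00000025225.7, chr19:46379227-46386580, plus strand), which encodes the p100 precursor of the noncanonical pathway, had a single peak across its outermost 5′ end. That peak (chr19:46378162-46380112) was 1951 bp wide, wider than 74.3% of all peaks, and its midpoint lay 90 bp before the outermost 5′ end. It was rich in G and C, at 59.6%, with 89.9% of peaks lower. Both capital stretches printed for Nfkb2, GGGAATTCCC 39 bp and GGGGCTTTCC 11 bp before the 5′ end, were inside this peak, and both were in its central 300 bp. A further match, which had the exact letters of the κB site of the immunoglobulin κ enhancer, lay 10 bp into an exon that starts from another 5′ end of Nfkb2, and was 83 bp beyond the edge of the peak. Apart from this peak none was listed in the 100 kb before Nfkb2, whose nearest coding neighbor on that side, Gbf1, was 18.2 kb away without a peak at a 5′ end. The other 5 peaks had their midpoints within 52.1 kb of the 5′ end on the downstream side, at or over Psd, Fbxl15, Cuedc2 and Tmem180. Psd overlaps the end of Nfkb2 in the annotation.

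Rel (ENSMUSG00000020275.8, chr11:23641514-23670970, minus strand) encodes c-Rel, the subunit most closely linked to lymphocyte activation. It had 2 peaks within 1 kb of its only annotated 5′ end, which 2.73% of coding genes matched or exceeded. The first peak (chr11:23669899-23670996, 1098 bp) crossed the 5′ end and had its midpoint 522 bp inside the gene, in an intron. The second (chr11:23671458-23673839, 2382 bp) had its midpoint 1.68 kb upstream and was wider than 84.7% of peaks. They differed in composition, with G and C at 53.6% in the first and 43.5% in the second. Between them lay 461 bp with no peak, from 27 to 487 bp before the 5′ end, and this stretch was 74.0% G and C with a ratio of observed to expected CpG of 1.03. The capital stretch printed for Rel, GGGAAATCCCC at 91 bp before the 5′ end, was in this gap and 55 bp from the nearer peak. Read coverage in the gap was not analysed here.

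Farther upstream of Rel, 4 more peaks lay at 35.2, 51.5, 75.6 and 83.8 kb from the 5′ end, and none of them overlapped a 5′ end window of any gene. The peak at 75.6 kb (chr11:23744086-23749124) was the widest of the 47, at 5039 bp, and 99.1% of all peaks were narrower. The peak at 83.8 kb (chr11:23752959-23756536) was 3578 bp wide, and each of these wide peaks held 2 κB matches. All 4 were poor in CpG, with ratios of 0.08 to 0.19, where the median peak had 0.39. The nearest coding gene on this side, Papolg, was 91.7 kb from Rel, so these peaks lay between the genes.

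Nfkb1 (ENSMUSG00000028163.8, chr3:135247619-135354511, minus strand), the gene of the p105 precursor, was the longest of the 10 at 107 kb and had no peak at any of its 8 distinct 5′ ends. The nearest peak was 8.37 kb upstream of a 5′ end (chr3:135362877-135363723, 847 bp), followed by one with its midpoint 19.2 kb upstream (chr3:135373039-135374402, 1364 bp). Both were poor in G and C, at 40.3% and 40.2%, a level below which only 2.0% of peaks lay. A peak of 997 bp (chr3:135291516-135292512) was found in an intron, 62.5 kb into the gene. The fourth peak was at the 5′ end of Manba, the lysosomal beta-mannosidase gene that lies 13.2 kb beyond the end of Nfkb1. The promoter window of Nfkb1 held GGGAATTTCC, 31 bp into the first exon and 8397 bp from the nearest peak.

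Rela and Relb had no peak within the 100 kb on each side and lay wholly inside wide intervals. Rela (ENSMUSG00000024927.6, chr19:5637483-5648130, plus strand) encodes p65, the main transactivating subunit of the canonical pathway. Its wide interval (chr19:5360001-6606000) spanned 1246 kb and ranked 37 of 289 by width. Rela was 277 kb from its nearer edge, and the nearest peak was 365 kb from the Rela 5′ end. This interval held 65 coding genes, 52.2 per Mb, among them the neighbors Kat5 at 27.4 kb and Sipa1 at 3.05 kb. Relb (ENSMUSG00000002983.9, chr7:20191566-20214787, minus strand), the partner of the processed Nfkb2 product, was in a wide interval (chr7:19260001-20580000) of 1320 kb, which ranked 35 by width and also held 65 coding genes, 49.2 per Mb. From Relb the nearest peak was 3009 kb away and the nearer edge of the interval 365 kb. The printed Relb sequence holds 1 match, GGGGTTTTCC, 97 bp before the 5′ end.

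Of the classical inhibitors, Nfkbia (ENSMUSG00000021025.7, chr12:56590398-56593634, minus strand), which encodes IκBα, the inhibitor that NF-κB itself induces to end its own activity, had peaks within 100 kb only on its 3′ side. It was the only one of the 10 with no peak over the gene or a 5′ end and no wide interval, a state shared by 40.5% of coding genes. In the 100 kb before the gene no peak was listed, and in the 100 kb after it there were 12. Of coding genes outside wide intervals, 99.0% had fewer peaks around them than Nfkbia, and 0.97% had 12 or more. The 12 peaks covered 19491 bp.

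The nearest 10 of these peaks, all within 65 kb of the gene, formed a run of 58.7 kb (chr12:56530550-56589287). They covered 27.7% of its length and overlapped the 5′ end window of no gene. The 65 kb limit was applied to Nfkbia alone, and no like value for other genes is given. The last peak of the run (chr12:56586885-56589287, 2403 bp) came within 1.11 kb of the end of Nfkbia and was 4.35 kb from its 5′ end. The widest (chr12:56565318-56569280) was 3963 bp, with 97.4% of peaks narrower, while the narrowest was 520 bp. Gaps between neighbors within the run were from 0.737 to 11 kb. κB matches were found in 3 of the 10, as 1 match in each of a pair of peaks and 2 in the widest. The other 2 peaks lay over Psma6, a proteasome subunit gene and the nearest coding gene on that side at 71 kb from Nfkbia. On the other side Aldoart2 was 72.6 kb away. The promoter match of Nfkbia, GGAAATTCCC at 29 bp before the 5′ end, was 4367 bp from the nearest peak.

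Nfkbie (ENSMUSG00000023947.7, chr17:45692665-45700118, plus strand), the gene of IκBε, had 2 peaks over its 7.45 kb. The first (chr17:45692616-45694045, 1430 bp) held the 5′ end, began 49 bp before it and had its midpoint 666 bp into the gene, in an intron. The second (chr17:45694985-45697791, 2807 bp) lay wholly within the gene after a gap of 939 bp, and 91.0% of peaks were narrower. No κB match was found in the first peak or in the promoter window, whereas the second peak held 2 matches, both near its upstream edge. The other 7 peaks around the gene included ones at the 5′ ends of Spats1, the cytosolic chaperone gene Hsp90ab1 and the nucleoside transporter gene Slc29a1. Slc35b2, only 0.79 kb beyond Nfkbie, had no peak.

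Nfkbib (ENSMUSG00000030595.8, chr7:29543270-29552531, minus strand), the gene of IκBβ, lay in the widest of the 3 wide intervals (chr7:27756001-30120000). This interval was 2364 kb long, ranked 11 of 289 and held 88 coding genes, 37.2 per Mb. Nfkbib was 567 kb from the nearer edge, and its nearest peak was 751 kb away. The window at its outermost 5′ end overlaps Sirt2 and had the lowest CpG ratio of the 10, at 0.22. A match, GGGAATTCCC, stood 34 bp before another of its 5′ ends.

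Of the atypical inhibitors, Nfkbiz (ENSMUSG00000035356.9, chr16:55811488-55839012, minus strand), the gene of IκBζ, an LPS-induced nuclear cofactor, had 1 peak that held 2 of its 3 distinct 5′ ends. That peak (chr16:55837751-55839454) was 1704 bp wide, with its midpoint in an exon and a G and C share of 49.2%, near the median of 50.3% over all peaks. A κB match lay inside it, 30 bp into the first exon, and is shown with 10 bases on each side (chr16:55838963-55838992, minus strand) because Nfkbiz and Nfkb2 were the only genes of the 10 with a promoter match inside a peak. Downstream of Nfkbiz, where the next coding gene, Zpld1, was 513 kb away, 5 peaks lay between 50.5 and 84.2 kb from the outermost 5′ end. The nearest and widest of these (chr16:55786811-55790247, 3437 bp, wider than 95.6% of peaks) held the letters of the immunoglobulin κ enhancer site, and is shown by the 50 bases around that match (chr16:55788504-55788553, minus strand). This was the only one of the 47 peaks with those exact letters, which were found in 0.99% of all peaks.
Nfkbiz first exon: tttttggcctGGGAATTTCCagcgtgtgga
Nfkbiz downstream peak: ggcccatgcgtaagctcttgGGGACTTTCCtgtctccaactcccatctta

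Bcl3 (ENSMUSG00000053175.9, chr7:20393811-20408119, minus strand) encodes a nuclear partner of the p50 and p52 homodimers. It lay 179 kb from Relb in the same wide interval and was 172 kb from the nearer edge. The nearest peak was 3192 kb away, the largest distance among the 10. Its neighbor Cblc, 11.7 kb away, was in the same wide interval. In Bcl3 itself, GGGAAGTCCC stood 17 bp into the first exon.

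**Figure D2:**
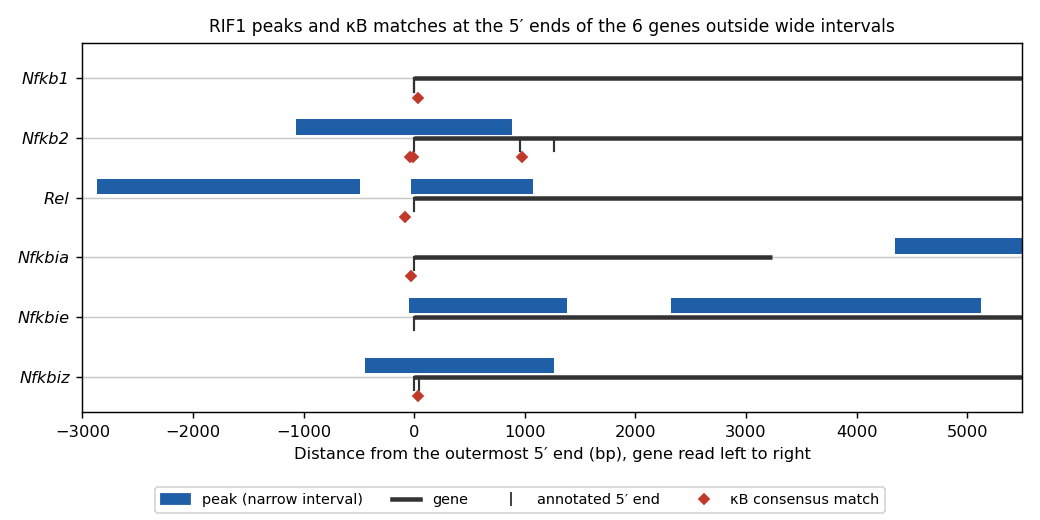
Peaks and κB consensus matches at the 6 genes outside wide intervals, with distance from the outermost 5′ end in bp on the horizontal axis, in the direction of transcription. Blue bars are peaks, dark lines genes, ticks annotated 5′ ends and red diamonds matches within the promoter windows. The Nfkb2 and Nfkbiz peaks cover their matches at the outermost 5′ end, the Rel match falls in the gap of 461 bp between peaks, and Nfkb1 has no peak in view.

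Set side by side, the 5 peaks at the 5′ ends of these genes were 1098 to 2382 bp wide, and 4 of the 5 were wider than the median of all peaks. With peaks at or above the median width only, 4 of the 10 genes and 21.7% of coding genes had a peak at a 5′ end. With all peaks it was 4 of 10 and 33.9%. Of the 5 peaks, 4 held an annotated 5′ end and 3 had their midpoint downstream of the nearest one. Like counts for the 5′ end peaks of other genes are not given here. G and C made up 43.5 to 59.6% of them. Promoter composition was described over the 300 bp from 250 bp before to 50 bp after the outermost 5′ end. A ratio of observed to expected CpG of 0.6 or more was found at 8 of 10 genes, against 45.2% of coding genes, and the exceptions were Nfkbia, at 0.54, and Nfkbib, at 0.22. Outside wide intervals, 5 of the 6 genes had such a promoter, and 4 of these 5 had a peak at a 5′ end, where Nfkb1, with a ratio of 0.87, did not. Among all coding genes outside wide intervals, a peak was found at 71.5% of those with a ratio of 0.6 or more and at 21.2% of the rest, so CpG content moved with peak presence over all genes. Its part in the result for these 10 genes was not tested.

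A κB consensus match was found in the promoter window of a 5′ end at 8 of 10 genes, against 11.5% of coding genes. With the window widened to 1 kb on each side it was still 8 of 10, but against 39.3% of coding genes. Counting the outermost 5′ end alone, 7 of 10 had one, against 5.91%. The exact letters of the immunoglobulin κ enhancer site, printed in capitals for the peak downstream of Nfkbiz, were found at 1 of 10, Nfkb2, against 0.29%. Rela and Nfkbie had no match. Of the 10 matches, 3 were inside a peak, 3 inside a wide interval and 4 in neither, so matches occurred at genes in each class of occupancy. In the 47 peaks around the genes, a match was found in 21, or 44.7%, against 25.9% of all peaks, and these peaks were also wider in the median. In the central 300 bp of each peak, where width plays no part, it was 5 of 47, or 10.6%, against 6.52%. A match describes letters in the reference and not binding.

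Distance from a 5′ end to the nearest peak was 0 for Nfkb2, Rel, Nfkbie and Nfkbiz, 4.35 kb for Nfkbia and 8.37 kb for Nfkb1, while the 4 genes in wide intervals were 365 kb (Rela), 751 kb (Nfkbib), 3009 kb (Relb) and 3192 kb (Bcl3) away. The latter distances are set in part by the wide intervals themselves, which hold no peaks. Over the 10 genes the median was 6.36 kb, which lay between the values of Nfkbia and Nfkb1, against 36.1 kb for all coding genes. For the 6 genes outside wide intervals the median was 0 kb, against 8.27 kb for all coding genes outside them. For the 4 genes in wide intervals it was 1880 kb, against 437 kb for all coding genes in wide intervals. Relb and Bcl3 lay in the same wide interval and had the same nearest peak, so their distances are not separate observations.

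**Figure D3:**
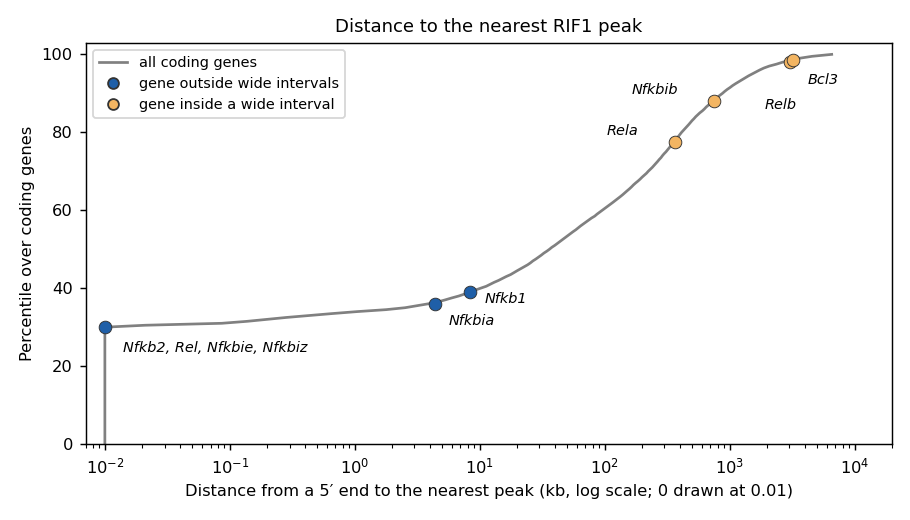
Distance from the nearest annotated 5′ end to the nearest peak in kb on a log axis (0 drawn at its left end), against the percentile over all coding genes on the vertical axis. The grey line is all coding genes and points are the 10 genes, blue outside and orange inside wide intervals. The 6 blue points lie at or below 8.37 kb and the 4 orange points at or above 365 kb.

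The 3 wide intervals that held these genes were 1246, 1320 and 2364 kb wide, with 52.2, 49.2 and 37.2 coding genes per Mb, and ranked 20, 24 and 50 of 289 by that density. An interval found through a gene it holds is more often a wide and gene-rich one, so medians over coding genes in wide intervals are the closer comparison. These were 960 kb and 35.4 coding genes per Mb, whereas over the 289 intervals themselves they were 576 kb and 16. The G and C content of the 3 intervals was 50.8, 49.8 and 48.2%, beside 48.0% in the median over genes. Nearest coding neighbors of Rela, Relb, Nfkbib and Bcl3 on both sides were in wide intervals as well, so occupancy of this kind was not resolved to the single gene. No gene of the pathway lists described next lay in any of these 3 intervals.

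The wider pathway was described with 3 lists of 50 genes in all, which hold none of the 10. A peak at a 5′ end was found at 23 of 50 (46%, beside the background of 33.9%) and a wide interval at 22 of 50 (44%, beside 22.6%), in 20 distinct intervals. In 4 of 50 neither was found at the gene or a 5′ end, beside 40.5% of coding genes. Each of the 50 had an interval of at least 1 kind in its 200 kb around, where 16.8% of coding genes had neither. κB matches were found in the promoter windows of 15 of 50, beside 11.5% of coding genes. As for the 10 genes, peaks and wide intervals were both found in each list.

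Of the 19 kinases and adaptors that carry the signal to NF-κB, 10 had a peak at a 5′ end (52.6%, beside 33.9% of coding genes). In a wide interval were 7 (36.8%, beside 22.6%). Those with a peak included Chuk and Ikbkg, for the IκB kinase subunits IKKα and NEMO, as well as Map3k7 (TAK1), Traf6 and Malt1, which are named here after their values were seen. Prkcb, a kinase of the B cell receptor pathway, held the most peaks over the gene, 4 in 346 kb, followed by Ikbkg and Traf5 with 2 each. The wide intervals held Tab1, Map3k14, Traf2, Bcl10, Rnf31 and Sharpin among others, so that Bcl10 differed in this respect from its partner Malt1. Ikbkb, the gene of the kinase IKKβ, had neither kind, and its nearest peak was 43.7 kb away.

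Of the 13 brakes, which end or dampen the signal, 6 had a peak at a 5′ end (Tnip2, Cyld, Nkiras1, Nkiras2, Itch and N4bp1). A wide interval covered 5 (Tnfaip3, Tnip1, Nfkbid, Commd1 and Pdlim2). These shares were 46.2% and 38.5%, beside 33.9% and 22.6% of coding genes. The deubiquitinase genes Cyld and Tnfaip3 were thus in different classes, with Tnfaip3 (A20) in a wide interval of 340 kb. Nfkbid, a further atypical inhibitor, was in one of 1482 kb. Itch and N4bp1 held the most peaks over the gene, 2 each.

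Of the 18 target genes, 7 had a peak at a 5′ end (38.9%, close to the 33.9% of coding genes). In a wide interval were 10 (55.6%, beside 22.6%). Those with a peak were Myc, Ccnd2, Traf1, Birc3, Cd40, Cd44 and Fas, among which Traf1, Birc3 and Cd44 held 2 peaks over the gene. The wide intervals held Icam1, Cd83, Irf4, Junb, Il6, Ccr7 and Pim1, and the neighboring cytokine genes Lta, Tnf and Ltb in a single one of 4842 kb. The 10 target genes in wide intervals were therefore in 8 distinct ones.

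**Figure D4:**
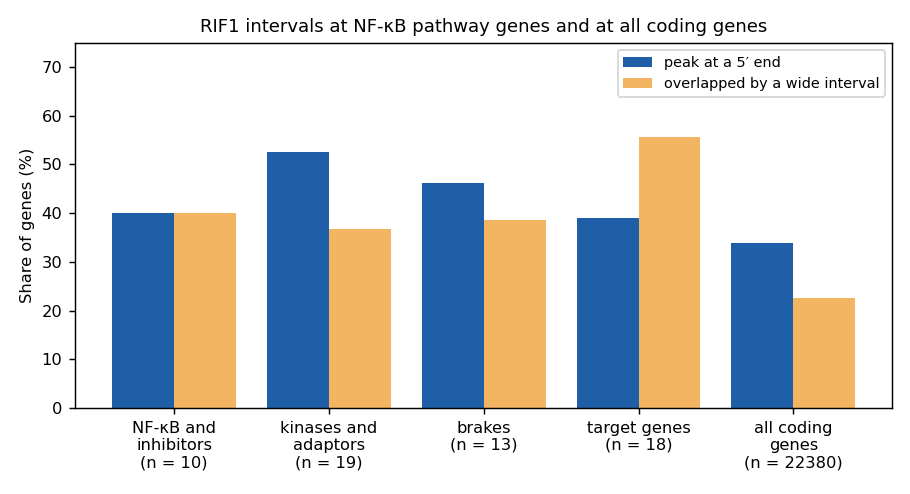
Share of genes in percent with a peak at a 5′ end (blue) and overlapped by a wide interval (orange), for the 10 NF-κB and inhibitor genes, the 3 pathway lists and all coding genes. Bars are counts over single lists without replicates, so there are no error bars. The 10 genes stand at 40% for both kinds, and all coding genes at 33.9% and 22.6%.

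As a check of the labelled cell type, occupancy does not measure expression and can show only where intervals lay. Of 6 B cell marker genes, 2 had a peak at a 5′ end (Cd79b and Pax5), or 33.3%, close to the 33.9% of coding genes. In a wide interval were 3 (50%, beside 22.6%), Cd79a and Ms4a1 among them. Ebf1 had no peak at a 5′ end and 3 over the gene. None of the 4 T cell and 3 myeloid marker genes had a peak at a 5′ end, beside 33.9% of coding genes, while Cd3d and Csf1r had 1 peak each over the gene and Cd4 and Itgam were in wide intervals. Lists this short do not tell the cell types apart.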

How the data were processed

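RIF1 was immunoprecipitated from chromatin of 200 to 600 bp fragments with an anti-HA antibody, as the protocol states, although the antibody label names the CD43 bead reagent used to isolate the cells. The authors trimmed reads with Trim Galore 0.6.4, aligned them to mm9 with Bowtie 1.0.0 (unique alignments only), called peaks per replicate with MACS2 2.2.6 and RADs with EDD, and merged the calls with bedtools 2.27.1, keeping those of both Rif1FH replicates. Unique alignment leaves repeats without peaks, and EDD works in bins, so the edges of wide intervals are coarse. The deposited file holds chromosome, start and end (other than positions it has no score, count or signal), so that depth is unknown. Genes came from GENCODE M1 and sequence from NCBIM37, in coordinates from 1.

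Overlap needed 1 bp, and the 200 kb around a gene was 100 kb beyond each of its ends. Distances ran from the nearest annotated 5′ end. All members and lists were chosen with earlier results of these data known. All 10 members are named. Of each list, the rule named the genes with the 2 highest peak counts and those in wide intervals, and others were named after their values were seen. No hypothesis was tested. The code that counts overlaps was checked on simulated intervals placed at known positions, which is no test of significance. Computation used Python 3.11.15, numpy 2.4.6 and matplotlib 3.10.9.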

Additional observations from a re-analysis of the deposited data

How the results depend on the processing

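Each count was recomputed under the alternatives planned for it, 34 comparisons over 8 results, of which 30 stayed close to the value given. With peaks at or above the median width only, the pathway genes with a peak at a 5′ end fell to 12 of 50 (21.7% of coding genes), the members with a peak over the gene to 3 of 10 (23.7%), and the median distance rose to 56.2 kb (94.5 kb for coding genes), as fewer peaks were counted. With the exact immunoglobulin κ enhancer site in place of the κB consensus, 1 member had a match (0.29% of coding genes). The consensus in 1 kb on each side of a 5′ end gave 8 members again, but 39.3% of coding genes. The count of 4 members with a peak at a 5′ end held for each definition of the 5′ end tried except 5 kb on each side, which added Nfkbia (5 of 10, against 36.7%), and wide intervals covered 4 members under every definition tried. Of the pathway genes, 20 to 24 had a peak at a 5′ end under the other settings. No paired analysis was possible because both Rif1FH samples are joined in a list of positions, and for the same reason no replicate could be left out. Without heights, weak and strong peaks count alike, and a gene without a peak may hold RIF1 below the calling limit.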
